A study of Mus musculus with 12 samples.

Results

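The 34 genes described here are those of glucose uptake, glycolysis and the response to low oxygen. They comprise 5 transporters of glucose or lactate, 12 genes of upper glycolysis (hexokinases down to triosephosphate isomerase), 7 genes of lower glycolysis with lactate dehydrogenase, and 10 targets or parts of the hypoxia-inducible factor (HIF) pathway. Members were chosen by gene symbol or synonym among 31693 gene names on the array, and for each gene the probe with the highest mean signal over all arrays was used. All 34 were on the array and all 34 were among the 22987 genes kept after dim probes were filtered out (a gene had to exceed background clearly in both replicates of 1 group or more). Because a gene could pass through its brightest group alone, the filter itself favours genes that differ; 33 of the members were well above background on every array, and Egln3 was not.

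The samples were macrophages grown from the bone marrow of 4 mice, 2 with a Commd1 knockout and 2 wildtype for Commd1. All marrow was cultured for 10 days with GM-CSF at 20 ng/mL, so every group was made up of GM-CSF-grown cells. The culture of each mouse was split into an untreated sample and samples given Escherichia coli lipopolysaccharide (LPS) at 10 ng/mL for 3 h or 24 h. The 6 groups, with 2 samples each, were knockout untreated, knockout 3 h LPS, knockout 24 h LPS, wildtype untreated, wildtype 3 h LPS and wildtype 24 h LPS. How the Commd1 allele was made, which cells carry it, and the age of the mice are not given in the sources used here.

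The level of Commd1, the targeted gene, as log2 signal relative to the 75th percentile of the array, was -0.50 and -0.01 in untreated knockout cells and 2.72 and 2.79 in untreated wildtype cells, a difference of -3.01 ± 0.23 (limma, adjusted p = 0.00166). The signal left in the knockout was well above background on every array. Of 8 macrophage markers, all 8 were well above background on all 12 arrays. Their summed log2 level lay between 8.37 and 9.02 in knockout samples and between 8.12 and 8.67 in wildtype samples. In untreated cells it was 8.37 and 8.42 in knockout and 8.12 and 8.21 in wildtype samples. At 3 h it was 8.78 and 9.02 in knockout and 8.61 and 8.63 in wildtype samples, so knockout samples were higher at both of these times. Markers of other cell types were measured too. All 7 neutrophil markers on the array were well above background on all 12 arrays. So were 4 of 8 dendritic cell, 2 of 6 T and NK cell, 2 of 5 B cell and 1 of 4 megakaryocyte markers. The same held for 1 of 4 erythroid, 1 of 6 mast cell, basophil and eosinophil, and 4 of 5 stromal markers. Among defining markers, Xcr1, Cd3g, Cd8a, Gp9, Alas2, Cpa3, Fcer1a and Epx were not well above background on any array. In untreated cells the summed level of B cell markers was 0.68 and 0.74 in knockout and between -0.40 and -0.28 in wildtype samples, and that of mast cell, basophil and eosinophil markers was between -2.06 and -1.90 in knockout and between -1.22 and -1.16 in wildtype samples. At 3 h the sum of dendritic cell markers was 6.06 and 6.27 in knockout and 5.78 and 5.80 in wildtype samples. The summed level of neutrophil markers was lowest in knockout cells at 3 h, at 3.63 and 3.83, against 4.16 in both wildtype samples at that time, and Lyz2, the lysozyme gene of myeloid cells, at 24 h was 3.46 and 3.60 in knockout cells and 4.68 and 4.65 in wildtype cells. Lyz2 is 1 of the 8 macrophage markers, and others did not all go its way at 24 h. Cd68 was at 4.93 and 5.01 in knockout and 4.77 and 4.71 in wildtype cells, and Itgam at 3.00 and 3.01 against 3.22 and 3.38. The summed level of the 8 at 24 h was 8.55 and 8.62 in knockout and 8.62 and 8.67 in wildtype cells. What part differences in cell makeup had in the results below was not tested. In bulk RNA, fewer cells of a type and less RNA per cell cannot be told apart. The array of knockout replicate 1 at 24 h stood apart, with 589 outlier spots (132 to 214 on the others) and 59.6% of spots well above background, the lowest share. Without it, 24 members were called in knockout cells at 24 h against untreated cells, 13 higher and 11 lower, against 28 with it.

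Glycolysis splits glucose to pyruvate: hexokinases trap the sugar, phosphofructokinases commit it, and the lower enzymes recover ATP before lactate dehydrogenase and the exporter MCT4 dispose of the product. HIF is a transcription factor whose alpha subunit is hydroxylated by EGLN enzymes and destroyed when oxygen is present. Macrophages stimulated with LPS are known for raised glycolysis and for HIF-1 alpha that accumulates without a lack of oxygen. HIF binds DNA at short sites with the core ACGTG or GCGTG.

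The promoters of 7 members are shown with these cores, because these genes went different ways with LPS and yet each held a core. Each is the 250 bases before a start of the gene, 5′ to 3′ on the strand of the gene, from RefSeq on build GRCm38.p6. Capitals mark ACGTG or GCGTG on either strand (CACGT or CACGC when read on the other strand), with overlapping matches run together.
Slc2a6 (chr2:27027999-27028248, minus strand): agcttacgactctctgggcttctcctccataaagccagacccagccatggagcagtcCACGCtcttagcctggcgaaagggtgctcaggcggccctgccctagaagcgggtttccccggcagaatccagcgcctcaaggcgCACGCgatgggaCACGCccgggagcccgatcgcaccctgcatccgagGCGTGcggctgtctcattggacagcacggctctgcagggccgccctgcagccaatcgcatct
Hk2 (chr6:82774455-82774704, minus strand): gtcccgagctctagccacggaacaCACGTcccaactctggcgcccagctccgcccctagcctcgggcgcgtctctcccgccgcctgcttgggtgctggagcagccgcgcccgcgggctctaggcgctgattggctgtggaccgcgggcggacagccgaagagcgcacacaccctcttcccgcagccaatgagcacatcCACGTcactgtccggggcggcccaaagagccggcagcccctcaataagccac
Pfkfb3 (chr2:11502091-11502340, minus strand): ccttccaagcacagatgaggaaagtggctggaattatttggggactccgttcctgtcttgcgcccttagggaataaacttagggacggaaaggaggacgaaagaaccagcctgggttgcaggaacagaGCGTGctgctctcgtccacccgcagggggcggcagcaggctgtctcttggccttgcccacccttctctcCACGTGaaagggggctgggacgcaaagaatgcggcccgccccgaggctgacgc
Ldha (chr7:46845554-46845803, plus strand): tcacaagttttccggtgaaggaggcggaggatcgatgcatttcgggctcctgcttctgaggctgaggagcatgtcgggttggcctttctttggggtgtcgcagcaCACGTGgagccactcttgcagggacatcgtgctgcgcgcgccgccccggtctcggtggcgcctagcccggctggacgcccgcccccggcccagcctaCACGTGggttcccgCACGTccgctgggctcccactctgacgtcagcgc
Aldoc (chr11:78322823-78323072, plus strand): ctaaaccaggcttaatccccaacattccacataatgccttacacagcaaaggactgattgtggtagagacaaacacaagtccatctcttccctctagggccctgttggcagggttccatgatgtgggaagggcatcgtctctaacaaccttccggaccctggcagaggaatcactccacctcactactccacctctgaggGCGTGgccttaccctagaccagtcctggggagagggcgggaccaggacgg
Pdk1 (chr2:71872974-71873223, plus strand): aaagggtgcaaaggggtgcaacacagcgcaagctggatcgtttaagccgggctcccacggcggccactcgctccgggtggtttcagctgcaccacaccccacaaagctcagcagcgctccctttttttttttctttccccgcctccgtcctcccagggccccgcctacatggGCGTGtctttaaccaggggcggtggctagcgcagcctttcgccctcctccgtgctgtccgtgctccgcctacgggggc
Ankrd37 (chr8:45999851-46000100, minus strand): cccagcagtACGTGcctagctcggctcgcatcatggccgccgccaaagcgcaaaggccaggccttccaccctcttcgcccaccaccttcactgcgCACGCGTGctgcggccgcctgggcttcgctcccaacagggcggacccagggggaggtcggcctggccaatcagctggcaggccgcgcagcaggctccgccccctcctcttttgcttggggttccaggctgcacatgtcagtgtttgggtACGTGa
The first 3 belong to genes with large rises at 3 h, Ldha to a gene with small changes, and the last 3 to genes that fell at 3 h or 24 h. Promoters were found for 32 of the members, and 29 of these (90.6%) held at least 1 core. The same was true of 11226 of 27025 genes with a promoter in the reference (41.5%) and of 7189 of the 13267 tested genes that had one (54.2%). For a gene with several starts, the promoter with most matches was taken, for members and for all genes alike. No allowance was made for base composition, and members were partly chosen as known HIF targets. The cores did not separate the directions: 14 of 15 members that rose in wildtype cells at 3 h and 6 of 6 that fell had one. Slc2a6 held 4 separate matches, as did Bnip3, while Eno2, Gpi1 and Tpi1 held none in this window.

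Levels are given as log2 of the processed signal minus the 75th percentile of the array, so 1 unit is a doubling and 0 is the 75th percentile. Levels of different genes cannot be set against each other, since each probe has its own brightness. Differences are log2 values with the standard error of the limma fit over all 12 arrays, n = 2 per group. A member is said to have risen or fallen only where the two-sided Benjamini-Hochberg adjusted p over all genes was under 0.05. The arrays lay on 3 slides, 1 for each time, so an effect of LPS and one of the slide cannot be told apart. Nothing in the labels says that the 2 mice of a group were processed apart, so p-values measure the spread between these samples.

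In knockout cells after 3 h of LPS, 17 of the 34 members rose and 8 fell, while of all genes tested 26.4% rose and 25.7% fell. The members' median difference was 0.31, against 0.06 over all genes. In wildtype cells at 3 h, 16 rose and 7 fell (all genes 23.2% and 23.3%), with a median of 0.27 (0.03 over all genes). After 24 h, 14 rose and 14 fell in knockout cells (all genes 26.0% and 31.5%), and 10 rose and 13 fell in wildtype cells (all genes 23.6% and 26.4%). Medians at 24 h were -0.13 in knockout and -0.16 in wildtype cells, against -0.07 and -0.04 over all genes. A larger share of the members than of all genes was called at both times, with no test of that difference, and falls outnumbered rises in wildtype cells at 24 h only. The balance moved with the scaling: in wildtype cells it was 13 up and 9 down at 3 h after quantile normalization, and 8 up and 17 down at 24 h when each array was rescaled by its spike-in slope. In knockout cells at 24 h, the spike-in slope scaling gave 9 up and 14 down.

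**Figure D1:**
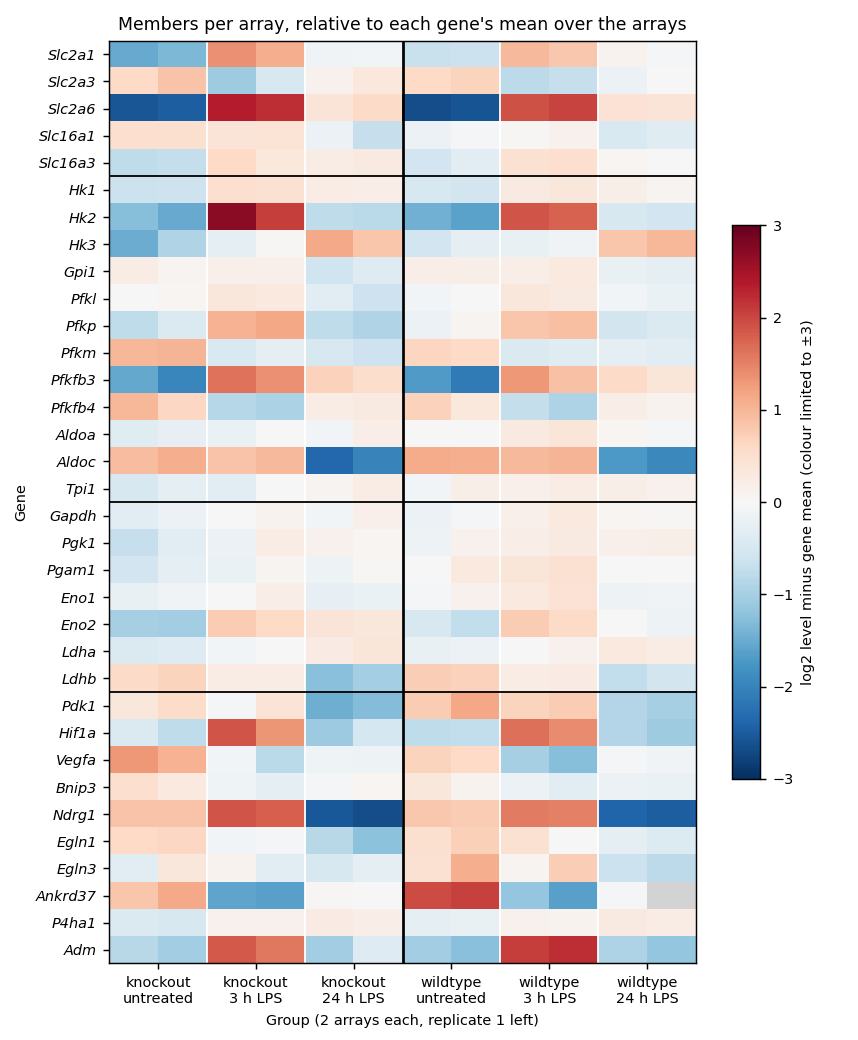
Level of each of the 34 members on each of the 12 arrays, as log2 level minus the mean of that gene over the arrays (colour, limited to ±3). Columns are the groups, with 2 arrays each, and horizontal lines part transport, upper glycolysis, lower glycolysis and HIF pathway genes. Slc2a6, Hk2, Pfkfb3, Hif1a, Adm and Ndrg1 are red at 3 h in both genotypes, and Ndrg1 and Aldoc are bluest at 24 h. The grey cell is the array on which the Ankrd37 spot was dropped.

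At 3 h, 15 members rose in both genotypes and 7 fell in both, against 19.9% and 20.7% of all genes. At 24 h, 10 rose and 11 fell in both, against 20.4% and 23.6% of all genes. No member was called in opposite directions at either time, which was rare among all genes too (0.0740% at 3 h and 0.0783% at 24 h). Members called in knockout cells alone at 3 h were Hk3, Pgk1 and Egln1, and in wildtype cells alone Eno1. Members called in knockout cells alone at 24 h were Slc16a1, Pfkl, Pfkfb4, Aldoa, Tpi1, Gapdh and Pgk1, and in wildtype cells alone Pfkp and Egln3. None of these differences between the genotypes' responses passed its own test, as given further on.

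**Figure D2:**
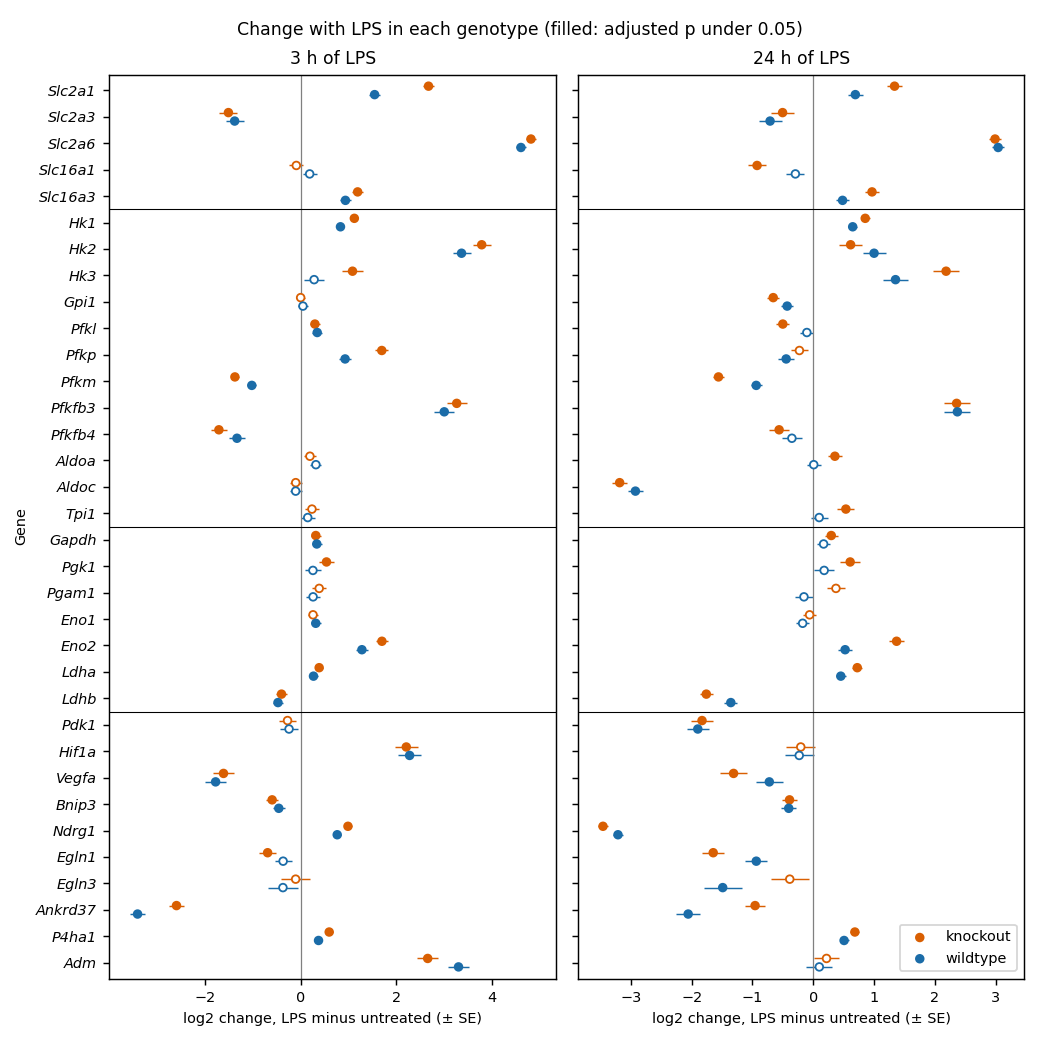
Log2 change with LPS, LPS minus untreated, of each member at 3 h (left) and 24 h (right), in knockout (orange) and wildtype cells (blue). Points are means of 2 mice per group with the standard error of the fit; filled points had an adjusted p under 0.05. Slc2a6 at 3 h lies at 4.81 in knockout and 4.60 in wildtype cells, and Ndrg1 at 24 h at -3.46 and -3.21; Egln3 was not well above background in the LPS-treated knockout cells or in wildtype cells at 24 h, so its points there rest on dim signals.

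Among the transporters, 3 of 5 rose and 1 fell in both genotypes at 3 h (all genes 19.9% and 20.7%). Slc2a6 encodes GLUT6, a hexose transporter of lysosomal membranes, and its probe lies at chr2:26876891-26876950 (mm9, minus strand). Its level was 1.86 and 1.98 untreated, 6.79 and 6.67 after 3 h and 4.82 and 5.01 after 24 h in knockout cells, and 1.78 and 1.85 untreated, 6.36 and 6.46 after 3 h and 4.88 and 4.83 after 24 h in wildtype cells. All 8 LPS-treated samples stood far above the 4 untreated ones. The 3 h rise was 4.81 ± 0.10 in knockout (28.0-fold) and 4.60 ± 0.10 in wildtype cells (24.2-fold, limma adjusted p = 2.17e-08), and about 3 log2 units were left at 24 h (2.99 and 3.04).

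Slc2a1 encodes GLUT1, the main glucose importer of many cells. It was at 0.90 and 1.07 untreated, 3.80 and 3.51 after 3 h and 2.32 and 2.33 after 24 h in knockout cells, and 1.76 and 1.78 untreated, 3.40 and 3.23 after 3 h and 2.53 and 2.39 after 24 h in wildtype cells. Treated and untreated samples did not overlap in either genotype, and the untreated knockout samples were the lowest of all. Slc2a1 rose by 2.67 ± 0.12 in knockout and 1.54 ± 0.12 in wildtype cells at 3 h, and by 1.34 ± 0.12 and 0.69 ± 0.12 at 24 h.

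Slc16a3 encodes the lactate exporter MCT4. Its level was 2.03 and 2.08 untreated, 3.38 and 3.11 after 3 h and 3.00 and 3.04 after 24 h in knockout cells, and 2.22 and 2.44 untreated, 3.24 and 3.28 after 3 h and 2.85 and 2.78 after 24 h in wildtype cells, with every treated sample above the untreated ones. It rose by 1.19 in knockout and 0.93 in wildtype cells at 3 h, and by 0.97 and 0.48 at 24 h. The wildtype call at 24 h was lost under the spike-in slope scaling and without replicate 1 of either wildtype group (log2 0.37 to 0.59 over the 4 fits that each left out 1 array, adjusted p 0.00954 to 0.0561).

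Slc2a3, which encodes the high-affinity importer GLUT3, went the other way. It was at -1.43 and -1.17 untreated, -3.11 and -2.51 after 3 h and -1.90 and -1.71 after 24 h in knockout cells, and -1.44 and -1.35 untreated, -2.82 and -2.73 after 3 h and -2.20 and -2.01 after 24 h in wildtype cells. The 3 h samples were lowest and the 24 h samples stood between them and the untreated ones. It fell, with a log2 change of -1.51 ± 0.19 in knockout and -1.38 ± 0.19 in wildtype cells at 3 h. At 24 h the values were -0.50 and -0.71; both calls were lost in fits without 1 array, in knockout cells without any 1 of the 4 and under 4 of 10 other settings (log2 -0.63 to -0.38) and in wildtype cells without untreated replicate 2 or 24 h replicate 1 (log2 -0.81 to -0.61). Slc16a1, the gene of the lactate transporter MCT1, was between -2.92 and -1.74 on all arrays and fell, with a log2 change of -0.92 ± 0.15 in knockout cells at 24 h, against a difference of -0.29 ± 0.15 in wildtype cells that did not pass (adjusted p = 0.136).

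**Figure D3:**
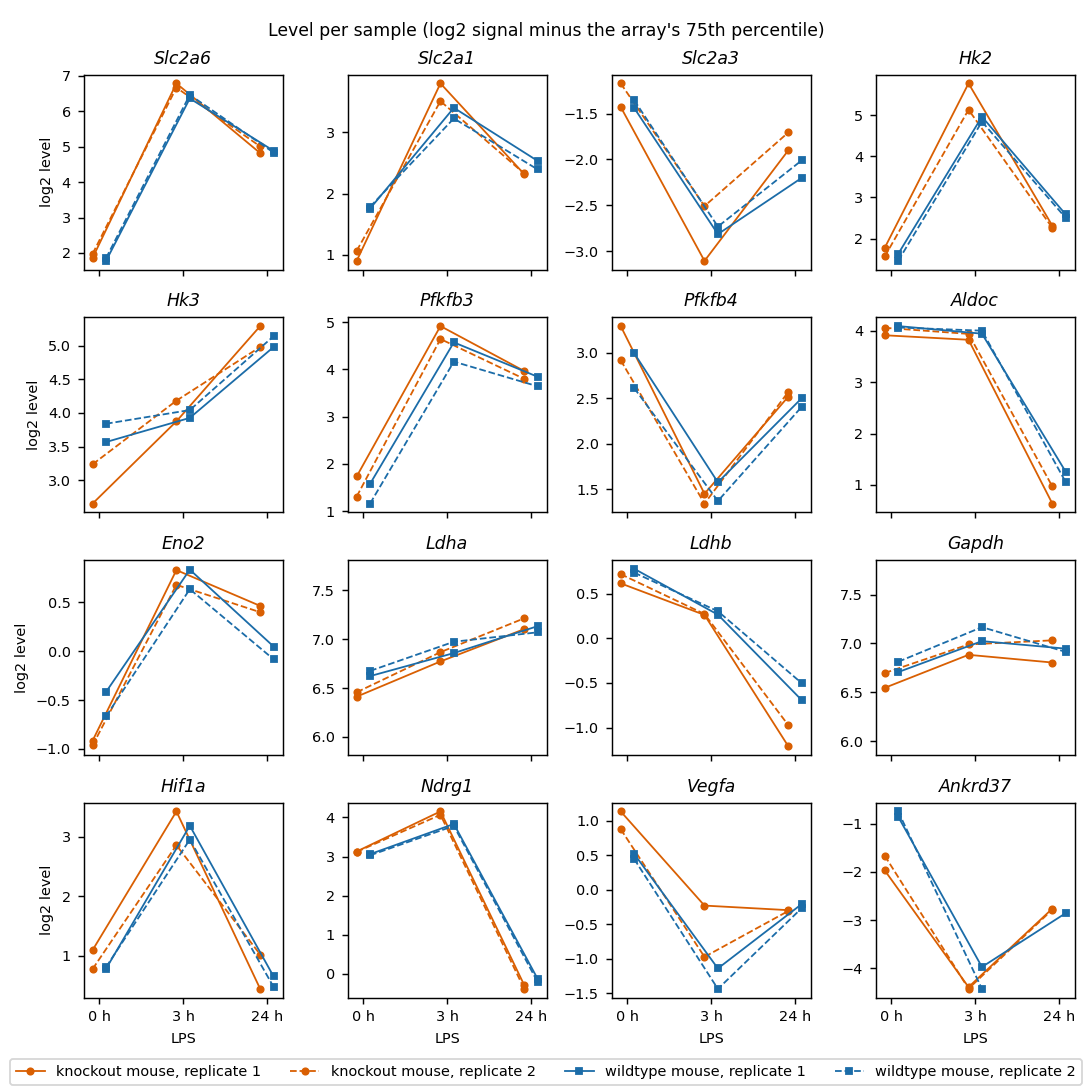
Log2 level per sample of 16 members against time of LPS (0 h is untreated), with knockout mice in orange circles and wildtype mice in blue squares; lines join the 3 samples of 1 mouse, and each panel has its own vertical scale of at least 2 log2 units. Slc2a6, Hk2, Pfkfb3 and Hif1a peak at 3 h, Slc2a3 and Pfkfb4 dip at 3 h, and Aldoc and Ndrg1 drop at 24 h, in all 4 mice. Vegfa does not return after 3 h in knockout replicate 1, and wildtype replicate 2 has no 24 h point for Ankrd37.

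In upper glycolysis, 6 of 12 genes rose and 2 fell in knockout cells at 3 h (all genes 26.4% and 25.7%). In wildtype cells 5 rose and 2 fell at 3 h (all genes 23.2% and 23.3%). The hexokinases, which phosphorylate glucose, differed in timing. Hk2 (probe at chr6:82675056-82675115, mm9, minus strand) was at 1.78 and 1.56 untreated, 5.77 and 5.13 after 3 h and 2.31 and 2.26 after 24 h in knockout cells, and 1.63 and 1.46 untreated, 4.96 and 4.84 after 3 h and 2.58 and 2.50 after 24 h in wildtype cells. The 3 h samples were more than 3 units above untreated ones in every mouse. Its rise was 3.78 ± 0.19 in knockout and 3.36 ± 0.19 in wildtype cells at 3 h, and 0.62 ± 0.19 and 1.00 ± 0.19 at 24 h; the knockout call at 24 h was lost under the spike-in slope scaling and without untreated replicate 2 or either 24 h replicate (log2 0.51 to 0.72).

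Hk3, the hexokinase of myeloid cells, rose late. It was at 2.66 and 3.24 untreated, 3.88 and 4.18 after 3 h and 5.29 and 4.98 after 24 h in knockout cells, and 3.57 and 3.84 untreated, 3.93 and 4.04 after 3 h and 4.98 and 5.14 after 24 h in wildtype cells, and the 24 h samples were the highest in both genotypes. The 24 h rise was 2.19 ± 0.21 in knockout and 1.35 ± 0.21 in wildtype cells. At 3 h it was 1.08 ± 0.21 in knockout cells (adjusted p = 0.00246) and 0.28 ± 0.21 in wildtype cells, where it did not pass (adjusted p = 0.308). Hk1, the hexokinase found in most tissues, rose at both times, by 1.12 and 0.86 in knockout and 0.83 and 0.65 in wildtype cells. Its levels were between 3.99 and 5.14, and the spike-in slope scaling took away the wildtype call at 24 h.

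PFKFB enzymes set the amount of a sugar phosphate that switches phosphofructokinase on, PFKFB3 mainly by making it. Pfkfb3 was at 1.74 and 1.31 untreated, 4.92 and 4.64 after 3 h and 3.97 and 3.80 after 24 h in knockout cells, and 1.58 and 1.16 untreated, 4.57 and 4.16 after 3 h and 3.84 and 3.64 after 24 h in wildtype cells. No treated sample overlapped an untreated one. It rose by 3.26 ± 0.21 in knockout and 3.00 ± 0.21 in wildtype cells at 3 h, and by 2.36 and 2.37 at 24 h. Its relative Pfkfb4 was at 3.29 and 2.92 untreated, 1.45 and 1.34 after 3 h and 2.52 and 2.57 after 24 h in knockout cells, and 2.99 and 2.61 untreated, 1.58 and 1.37 after 3 h and 2.50 and 2.40 after 24 h in wildtype cells. Each mouse had its lowest Pfkfb4 level at 3 h. Pfkfb4 fell, with a log2 change of -1.71 ± 0.16 in knockout and -1.33 ± 0.16 in wildtype cells at 3 h, while the 24 h value of -0.56 ± 0.16 in knockout cells was called and that of -0.35 ± 0.16 in wildtype cells was not, though it was without untreated replicate 2 and under 3 other settings. The knockout call at 24 h was lost when only the groups compared were fitted and without untreated or 24 h replicate 1 (log2 -0.75 to -0.37).

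The 3 phosphofructokinase genes did not share a pattern. Pfkp, the platelet type, was at -0.29 and 0.03 untreated, 1.51 and 1.63 after 3 h and -0.29 and -0.42 after 24 h in knockout cells, and 0.30 and 0.54 untreated, 1.32 and 1.38 after 3 h and -0.09 and 0.04 after 24 h in wildtype cells. It was highest at 3 h in all 4 mice, with rises of 1.69 ± 0.13 in knockout and 0.93 ± 0.13 in wildtype cells. A further Pfkp probe, also well above background on all arrays, gave 0.50 in knockout and 0.10 in wildtype cells at 3 h, and the mean over both probes was 1.09 in knockout and 0.51 in wildtype cells. At 24 h it was -0.23 against untreated in knockout cells, which did not pass, and -0.45 in wildtype cells, a call that was lost without untreated replicate 2 or either 24 h replicate (log2 -0.57 to -0.33). Pfkm, the muscle type, was at 0.57 and 0.57 untreated, -0.90 and -0.71 after 3 h and -0.92 and -1.05 after 24 h in knockout cells, and 0.21 and 0.17 untreated, -0.87 and -0.79 after 3 h and -0.74 and -0.76 after 24 h in wildtype cells. Treated samples were all below untreated ones, with changes of -1.37 ± 0.09 in knockout and -1.02 ± 0.09 in wildtype cells at 3 h and of -1.56 and -0.94 at 24 h. Pfkl, the liver type, stayed between -0.49 and 0.48. Its 3 h rises of 0.30 in knockout and 0.35 in wildtype cells lost their calls without any 1 of the 4 arrays (log2 0.27 to 0.33 and 0.29 to 0.40). Both calls were also lost with the 75th percentile over detected probes and without a filter on dim probes. The knockout call was lost too with mouse as a block, normexp, the deposited table, the spike-in slope scaling and only the groups compared. At 24 h Pfkl fell, with a log2 change of -0.50 in knockout cells and was at -0.10 in wildtype cells, where it did not pass.

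The aldolases split the sugar in 2, and Aldoc stood out at 24 h. Its level was 3.92 and 4.06 untreated, 3.83 and 3.94 after 3 h and 0.64 and 0.97 after 24 h in knockout cells, and 4.10 and 4.07 untreated, 3.95 and 4.01 after 3 h and 1.26 and 1.06 after 24 h in wildtype cells. Untreated and 3 h samples lay together near 4, and the 24 h samples about 3 units lower. It fell, with a log2 change of -3.19 ± 0.13 in knockout and -2.93 ± 0.13 in wildtype cells at 24 h (adjusted p = 3.75e-07 and 7.54e-07), and differed by -0.10 and -0.10 at 3 h. Aldoa lay between 6.51 and 7.25; its rise of 0.36 in knockout cells at 24 h turned to -0.012 after quantile normalization and -0.13 under the spike-in slope scaling, and was lost without untreated replicate 1 or 24 h replicate 2 (log2 0.22 to 0.49). Gpi1, which makes fructose phosphate from glucose phosphate, fell, with a log2 change of -0.66 ± 0.10 in knockout and -0.43 ± 0.10 in wildtype cells at 24 h. Its levels were 4.99 and 5.20 in knockout and 5.38 and 5.33 in wildtype cells at 24 h, below all 8 other samples. Tpi1, the last enzyme of the upper part, rose by 0.54 ± 0.14 in knockout cells at 24 h; the call was lost after quantile normalization, under the spike-in slope scaling and without untreated replicate 1 or 24 h replicate 2 (log2 0.43 to 0.64). In wildtype cells its difference was 0.10 ± 0.14, not called.

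Apart from Eno2 and Ldhb, the genes of lower glycolysis differed by under 1 log2 unit with LPS. At 3 h, 4 of 7 rose and 1 fell in each genotype (all genes 26.4% and 25.7% in knockout, 23.2% and 23.3% in wildtype cells). Eno2, the enolase best known from neurons, was at -0.92 and -0.96 untreated, 0.83 and 0.68 after 3 h and 0.46 and 0.40 after 24 h in knockout cells, and -0.42 and -0.67 untreated, 0.84 and 0.64 after 3 h and 0.05 and -0.08 after 24 h in wildtype cells. Treated samples lay above untreated ones in both genotypes. It rose by 1.70 ± 0.12 in knockout and 1.28 ± 0.12 in wildtype cells at 3 h and by 1.37 ± 0.12 and 0.53 ± 0.12 at 24 h. Ldhb, the lactate dehydrogenase subunit that favours the making of pyruvate, was at 0.62 and 0.72 untreated, 0.26 and 0.27 after 3 h and -1.21 and -0.97 after 24 h in knockout cells, and 0.78 and 0.74 untreated, 0.27 and 0.30 after 3 h and -0.69 and -0.50 after 24 h in wildtype cells. Every mouse had less at 3 h than untreated and less again at 24 h. The 24 h change was -1.76 ± 0.11 in knockout and -1.36 ± 0.11 in wildtype cells, and the 3 h change -0.40 and -0.47; the knockout call at 3 h was lost without untreated replicate 2 (log2 -0.45 to -0.35).

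Ldha, the subunit that favours the making of lactate, was at 6.41 and 6.46 untreated, 6.77 and 6.87 after 3 h and 7.10 and 7.21 after 24 h in knockout cells, and 6.62 and 6.68 untreated, 6.86 and 6.97 after 3 h and 7.13 and 7.07 after 24 h in wildtype cells. The treated samples were above the untreated ones, by 0.72 ± 0.09 in knockout and 0.45 ± 0.09 in wildtype cells at 24 h. These differences were small enough for the scaling to matter: the wildtype value at 24 h turned to -0.28 under the spike-in slope scaling and lost its call after quantile normalization, and the spike-in slope scaling ended the knockout call. The 3 h rise of 0.27 in wildtype cells turned to -0.041 after quantile normalization and lost its call without any 1 of the 4 arrays (adjusted p 0.0555 to 0.192), and that of 0.39 in knockout cells lost its call after quantile normalization.

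Gapdh, often used as a control gene, was at 6.54 and 6.70 untreated, 6.88 and 6.99 after 3 h and 6.80 and 7.03 after 24 h in knockout cells, and 6.71 and 6.81 untreated, 7.02 and 7.17 after 3 h and 6.95 and 6.91 after 24 h in wildtype cells. Treated samples were higher by 0.32 ± 0.11 in knockout and 0.34 ± 0.11 in wildtype cells at 3 h. Both calls were lost without any 1 of the 4 arrays (log2 0.24 to 0.39 and 0.26 to 0.41). They were also lost after quantile normalization, under the spike-in slope scaling and with the 75th percentile over detected probes. The same held without a filter on dim probes, with the mean over the Gapdh probes and with only the groups compared. At 24 h the knockout rise of 0.30 turned to -0.074 after quantile normalization and -0.19 under the spike-in slope scaling, and was lost without either untreated replicate or 24 h replicate 2 (log2 0.18 to 0.41); the wildtype value of 0.17 was not called. Eno1 rose by 0.31 ± 0.10 in wildtype cells at 3 h, a call lost under 5 of 10 other settings and without untreated replicate 1 or either 3 h replicate (log2 0.24 to 0.39), and was at 0.26 ± 0.10 in knockout cells, called without 3 h replicate 1 and under 3 other settings.

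Pgk1, whose enzyme makes the first ATP of the pathway, rose by 0.54 ± 0.17 at 3 h and 0.61 ± 0.17 at 24 h in knockout cells and was at 0.26 ± 0.17 and 0.18 ± 0.17 in wildtype cells, neither called. The knockout calls were lost after quantile normalization and without untreated replicate 1, and also without 3 h replicate 2 (log2 0.33 to 0.75) or 24 h replicate 1 (log2 0.44 to 0.78). The files place the Pgk1 probe at chr3:57906830-57906894 (mm9), while RefSeq has the gene on chromosome X, and which sequence it reads was not tested. Pgam1, the mutase, lay between 4.68 and 5.70, and no LPS difference from untreated cells was called in either genotype (knockout 0.39 and 0.37, wildtype 0.26 and -0.15). The knockout values were called without untreated replicate 2 (both times) or 3 h replicate 1.

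The 10 genes of the HIF pathway split at 3 h, with 4 up and 4 down in knockout cells (all genes 26.4% and 25.7%). In wildtype cells 4 were up and 3 down at 3 h (all genes 23.2% and 23.3%). At 24 h most fell: 1 rose and 6 fell in knockout cells (all genes 26.0% and 31.5%), and 1 rose and 7 fell in wildtype cells (all genes 23.6% and 26.4%). Hif1a, the gene of the HIF-1 alpha subunit (probe at chr12:75047269-75047329, mm9, plus strand), was at 1.10 and 0.78 untreated, 3.43 and 2.86 after 3 h and 0.44 and 1.02 after 24 h in knockout cells, and 0.78 and 0.81 untreated, 3.19 and 2.95 after 3 h and 0.65 and 0.48 after 24 h in wildtype cells. It was high in all 4 samples at 3 h only. The rise at 3 h was 2.20 ± 0.24 in knockout and 2.27 ± 0.24 in wildtype cells, and the 24 h values of -0.21 and -0.23 did not pass (adjusted p = 0.486 and 0.453). Adm, which encodes the vessel-widening peptide adrenomedullin, shared this shape. Its level was -4.91 and -5.10 untreated, -2.21 and -2.49 after 3 h and -5.11 and -4.46 after 24 h in knockout cells, and -5.10 and -5.32 untreated, -1.98 and -1.85 after 3 h and -4.99 and -5.23 after 24 h in wildtype cells. The rise at 3 h was 2.65 ± 0.21 in knockout and 3.29 ± 0.21 in wildtype cells, and at 24 h the differences were 0.22 and 0.10, neither called; without knockout replicate 1 at 24 h that in knockout cells was.

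Ndrg1, a gene raised by low oxygen and other stresses (probe at chr15:66761057-66761116, mm9, minus strand), changed direction between the times. It was at 3.13 and 3.12 untreated, 4.15 and 4.07 after 3 h and -0.29 and -0.39 after 24 h in knockout cells, and 3.06 and 3.03 untreated, 3.83 and 3.78 after 3 h and -0.13 and -0.21 after 24 h in wildtype cells. The 3 h samples were above the untreated ones, and the 24 h samples more than 3 units below the untreated ones. The rise at 3 h was 0.99 ± 0.08 in knockout and 0.76 ± 0.08 in wildtype cells. The change at 24 h was -3.46 ± 0.08 in knockout cells and -3.21 ± 0.08 in wildtype cells (adjusted p = 4.89e-08).

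Ankrd37, an ankyrin repeat gene known as a HIF-1 target, fell early. It was at -1.97 and -1.66 untreated, -4.39 and -4.42 after 3 h and -2.76 and -2.78 after 24 h in knockout cells, and -0.85 and -0.74 untreated, -3.97 and -4.43 after 3 h and -2.86 after 24 h in wildtype cells; the spot on the array of wildtype replicate 2 at 24 h was an outlier and was dropped, so that group has 1 value. All treated samples lay below the untreated ones of their genotype. The 3 h change was -2.59 ± 0.16 in knockout and -3.40 ± 0.16 in wildtype cells, and the 24 h change -0.96 ± 0.16 and -2.06 ± 0.20. Vegfa, the gene of the vessel growth factor, was at 1.14 and 0.88 untreated, -0.23 and -0.97 after 3 h and -0.30 and -0.31 after 24 h in knockout cells, and 0.52 and 0.45 untreated, -1.14 and -1.44 after 3 h and -0.21 and -0.27 after 24 h in wildtype cells. The 3 h change was -1.61 ± 0.22 in knockout and -1.78 ± 0.22 in wildtype cells, and -1.98 to -1.24 in knockout cells without 1 array. Another Vegfa probe changed less, with -0.41 in knockout and -0.88 in wildtype cells, and the mean over the probes in knockout cells was -1.01. At 24 h it was -1.31 ± 0.22 in knockout and -0.72 ± 0.22 in wildtype cells, but the other Vegfa probe gave 0.08 in wildtype cells at 24 h, the mean over the probes was not called there, and the call was lost without any 1 of the 4 arrays (adjusted p 0.0700 to 0.0975).

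Pdk1, whose kinase keeps pyruvate out of the mitochondrial cycle, was at -0.29 and -0.08 untreated, -0.70 and -0.22 after 3 h and -2.09 and -1.94 after 24 h in knockout cells, and 0.13 and 0.53 untreated, 0.04 and 0.13 after 3 h and -1.50 and -1.64 after 24 h in wildtype cells. The 24 h samples lay below all others. The change at 24 h was -1.83 ± 0.18 in knockout and -1.90 ± 0.18 in wildtype cells, and the 3 h differences of -0.27 and -0.24 were not called. Bnip3, a receptor for the clearance of mitochondria, fell, with a log2 change of -0.60 in knockout and -0.46 in wildtype cells at 3 h and by -0.39 and -0.40 at 24 h. Its 3 h call in wildtype cells was lost without untreated replicate 1 or 3 h replicate 2 (log2 -0.57 to -0.35), and its 24 h calls without untreated replicate 1 or 24 h replicate 1 in both genotypes and without 24 h replicate 2 in wildtype cells (log2 -0.50 to -0.28 in knockout, -0.51 to -0.29 in wildtype).

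The EGLN prolyl hydroxylases mark HIF alpha for destruction. Egln1 was at -2.67 and -2.64 untreated, -3.36 and -3.33 after 3 h and -4.10 and -4.50 after 24 h in knockout cells, and -2.79 and -2.56 untreated, -2.81 and -3.27 after 3 h and -3.54 and -3.68 after 24 h in wildtype cells. The 24 h samples were the lowest of each genotype, with changes of -1.65 ± 0.18 in knockout and -0.94 ± 0.18 in wildtype cells. At 3 h Egln1 fell, with a log2 change of -0.69 ± 0.18 in knockout cells, a call lost without untreated replicate 2 (adjusted p 0.0397 to 0.0502 over the 4 fits), and was at -0.37 ± 0.18 in wildtype cells, called without 3 h replicate 1 and with normexp. Egln3 was dim throughout. It was not well above background in wildtype cells at 24 h, where it was at least 2.01-fold lower than in untreated wildtype cells (adjusted p = 0.00422), a call lost under normexp and the spike-in slope scaling. In the LPS-treated knockout cells it was not well above background either, and no difference from untreated knockout cells was called with the probe used. That probe gave -0.39 in knockout and -1.49 in wildtype cells at 24 h. A further Egln3 probe gave larger falls at 24 h, -2.18 in knockout and -3.73 in wildtype cells. At 3 h the further probe gave -0.48 and -0.54. It was well above background on 7 arrays, against 6 for the probe used, so its values rest on dim signals too. The size of the Egln3 fall therefore depends on the probe. P4ha1, a collagen prolyl hydroxylase, rose at both times, by 0.60 and 0.69 in knockout and 0.37 and 0.51 in wildtype cells; with the mean over its probes the 3 h values were 0.91 in knockout and 0.61 in wildtype cells. Its levels were -0.11 and -0.16 in knockout and -0.09 and -0.14 in wildtype cells at 24 h, against -0.80 and -0.84 in untreated knockout and -0.66 and -0.58 in untreated wildtype cells, with no overlap.

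Levels at 24 h were also compared with those at 3 h of LPS. In knockout cells 18 of 34 were lower at 24 h than at 3 h and 5 were higher (all genes 32.6% and 26.4%), and in wildtype cells 20 were lower and 5 higher (all genes 26.9% and 25.7%). The lower calls numbered 16 in knockout and 17 in wildtype cells after quantile normalization, 15 in knockout cells with only the groups compared, and 13 to 16 in wildtype cells without 1 array. The largest declines were those of Ndrg1 (-4.45 ± 0.08 in knockout, -3.98 ± 0.08 in wildtype), Adm in wildtype cells (-3.19 ± 0.21), Hk2 in knockout cells (-3.16 ± 0.19) and Aldoc (-3.08 ± 0.13 and -2.82 ± 0.13). Members higher at 24 h than at 3 h in both genotypes were Slc2a3, Hk3, Pfkfb4 and Ankrd37, with Ldha in knockout cells (0.34) and Vegfa in wildtype cells (1.05) besides. The Ldha value turned to -0.14 under the spike-in slope scaling. Of all these calls, 19 of 23 in knockout and 16 of 25 in wildtype cells held under every alternative and in every fit that left out 1 array. Among those that did not, Slc2a3 in wildtype cells (0.57 to 0.76) lost its call without either 3 h replicate or 24 h replicate 2. Pfkfb3 in wildtype cells (-0.83 to -0.42) lost its call without 3 h replicate 1 or either 24 h replicate. In wildtype cells, calls were also lost without any 1 of the 4 arrays for Slc16a1 (-0.53 to -0.43) and Pgam1 (-0.45 to -0.37), without 3 h replicate 1 or 24 h replicate 2 for Pfkl, without replicate 2 of either time for Slc16a3 and Egln3, and without 3 h replicate 1 or either 24 h replicate for Egln1. In knockout cells they were lost without either 24 h replicate for Eno1 and Eno2, and also without 3 h replicate 2 for Eno1 and 3 h replicate 1 for Eno2 and Hk1. In contrast, in knockout cells Pfkm and Vegfa gained a call without 3 h replicate 1, and Slc16a3 and Tpi1 without 3 h replicate 2.

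Knockout and wildtype cells were then compared at each time. Without LPS, 1 of the 34 members was higher and 3 were lower in knockout cells, against 3.72% and 3.01% of all genes. Slc2a1 was at 0.90 and 1.07 in knockout and 1.76 and 1.78 in wildtype cells, a difference of -0.79 ± 0.12 (limma, adjusted p = 0.0143). Ankrd37 was at -1.97 and -1.66 in knockout and -0.85 and -0.74 in wildtype cells (-1.02 ± 0.16, adjusted p = 0.0205). Pfkp was at -0.29 and 0.03 in knockout and 0.30 and 0.54 in wildtype cells (-0.55 ± 0.13, adjusted p = 0.0482). Pfkm was at 0.57 and 0.57 in knockout and 0.21 and 0.17 in wildtype cells, the only one higher (0.38 ± 0.09, adjusted p = 0.0473). In none of these 4 did the genotypes overlap, but the same was true of 24 of all 34 members, these 4 included. Lack of overlap therefore does not set the 4 apart, and its share over all genes was not counted.

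These genotype calls were less firm than those with LPS. All 4 were lost when only the untreated arrays were fitted, but that fit called 0% of all genes, so it cannot weigh these members. Each was also lost without at least 2 of the 4 arrays. The difference of Slc2a1 was -0.87 to -0.70 in those fits, with the call lost without wildtype replicate 2 or knockout replicate 1, and it was called in the other 9 settings. Ankrd37 (-1.17 to -0.87) and Pfkp (-0.71 to -0.39) lost the call without either wildtype replicate or knockout replicate 1, Pfkp also with the mean over its probes (-0.40, adjusted p = 0.0624), and Pfkm (0.36 to 0.40) without any 1 array. The calls of Pfkp and Pfkm were also lost with the 75th percentile over detected probes and without a filter on dim probes. Hk3, at -0.76 ± 0.21, was called without knockout replicate 2 and under 3 other settings. On every slide the knockout samples lay on one pair of array positions and the wildtype samples on another, so a genotype effect and one of array position cannot be told apart. The slope of log2 signal on the amount of spiked-in RNA was 0.794 and 0.797 on untreated knockout arrays and 0.743 and 0.735 on untreated wildtype arrays. When the arrays were rescaled by this slope, 18 members were called in untreated cells, 15 of them lower in the knockout, among them Gapdh, Aldoa, Pgk1, Eno1 and Ldha. The same rescaling raised the share called over all genes to 27.8%, with 4150 genes higher and 2234 lower in the knockout.

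**Figure D4:**
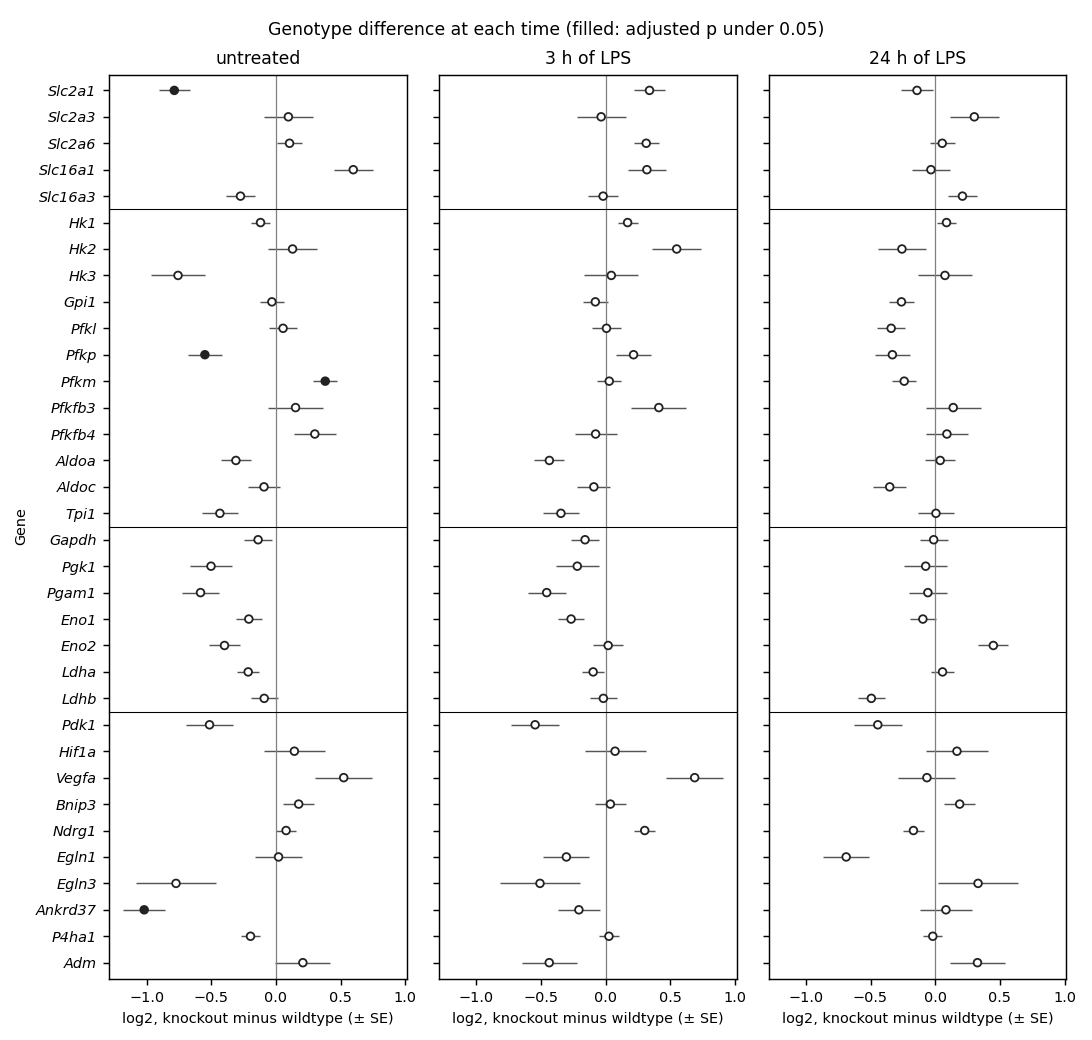
Knockout minus wildtype difference of each member, as log2 with the standard error of the fit, in untreated cells (left), after 3 h (middle) and after 24 h of LPS (right), with 2 mice per genotype. Filled points had an adjusted p under 0.05: Slc2a1, Pfkp, Pfkm and Ankrd37 in untreated cells, and none after LPS.

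After 3 h of LPS, 0 of the 34 members differed between knockout and wildtype in limma (all genes 1.06% higher and 0.600% lower); 10 had an unadjusted p under 0.05, as had 24.3% of all genes. The largest differences were 0.69 ± 0.22 for Vegfa, 0.55 ± 0.19 for Hk2 and -0.54 ± 0.18 for Pdk1, with adjusted p of 0.115, 0.133 and 0.129, and the lowest adjusted p was that of Ndrg1 (0.30 ± 0.08, adjusted p = 0.0779). Arrays at 3 h had slopes of 0.798 and 0.799 for knockout and 0.743 for both wildtype samples, and rescaled by them 9 members were called, as were 23.0% of all genes. One array bore on this count: without knockout replicate 2 at 3 h, 5 members were called (Slc2a1, Hk2, Aldoa, Pdk1 and Vegfa), beside 12.7% of all genes, so the members' share was close to that of all genes. After 24 h, again 0 were called (all genes 0.722% and 1.67%), with 9 at an unadjusted p under 0.05 (21.7% of all genes). Ldhb was nearest, at -1.21 and -0.97 in knockout and -0.69 and -0.50 in wildtype cells (-0.49 ± 0.11, adjusted p = 0.0541), and it was called in 4 of the other settings and without knockout replicate 2 at 24 h.

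The difference between the genotypes in the LPS response itself was tested as an interaction. At 3 h, 0 members passed (all genes 0.0261% higher and 0.00870% lower in knockout), with 7 at an unadjusted p under 0.05 (12.4% of all genes); the response of Slc2a1 was larger in knockout cells by 1.13 ± 0.17 (adjusted p = 0.0764), and without knockout replicate 2 at 3 h it passed. At 24 h, 0 passed (all genes 0.157% and 0.174%), with 12 at an unadjusted p under 0.05 (14.6% of all genes), and Eno2 had the lowest adjusted p (0.85 ± 0.17, adjusted p = 0.0783). Eno2 passed in 3 of the other settings, including that with mouse as a replicate block. Slc16a1 (-0.63 ± 0.21) passed only without knockout replicate 1 at 24 h. Averaged over the 3 times and compared between the mice, 0 members differed (all genes 0% in either direction), with 6 at an unadjusted p under 0.05 (24.3% of all genes). With 4 mice this test had 2 residual degrees of freedom. It did not call the targeted gene Commd1 either (log2 -2.99 ± 0.19, limma adjusted p = 0.129), so its count of 0 cannot show a lack of difference. With all arrays and mouse as a random replicate block, 3 were called, Pdk1, Pgam1 and Eno1, all lower in knockout cells, while 18.6% of all genes were called, a larger share.

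Other genes of the same pathways were set beside the members from lists of glycolysis and pyruvate genes, the pentose phosphate pathway, the HIF machinery and further hypoxia targets. Of 27 further glycolysis genes measured, 4 rose and 14 fell in knockout cells at 3 h (all genes 26.4% and 25.7%). In wildtype cells 3 rose and 12 fell at 3 h (all genes 23.2% and 23.3%). Gpd2, which passes electrons from glycolysis to mitochondria, was at 2.69 and 2.42 in knockout and 2.30 and 2.30 in wildtype cells at 3 h, against -0.39 and -0.53 in untreated knockout and -0.11 and -0.27 in untreated wildtype cells (wildtype rise 2.49 ± 0.12). Pdp1, a phosphatase that activates pyruvate dehydrogenase, fell to -0.03 and -0.22 in knockout and -0.17 and -0.21 in wildtype cells at 3 h, against 1.83 and 1.98 in untreated knockout and 2.52 and 2.56 in untreated wildtype cells (wildtype -2.73 ± 0.10). Fbp1, an enzyme of glucose synthesis, fell, with a log2 change of -1.64 ± 0.19 in wildtype cells at 24 h.

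Of 8 pentose phosphate genes, 1 rose and 2 fell in knockout and 1 rose and 1 fell in wildtype cells at 3 h. At 24 h, 2 rose and 4 fell in each genotype. Of all genes, 26.4% rose and 25.7% fell in knockout and 23.2% and 23.3% in wildtype cells at 3 h. The shares at 24 h were 26.0% and 31.5% in knockout and 23.6% and 26.4% in wildtype cells. Among 6 genes of the HIF machinery, Hif1an, whose enzyme blocks the activity of HIF alpha, fell, with a log2 change of -0.79 ± 0.15 at 3 h and -0.82 ± 0.15 at 24 h in wildtype cells. Of 24 further hypoxia targets, 10 rose and 6 fell in knockout cells at 3 h (all genes 26.4% and 25.7%). In wildtype cells 8 rose and 4 fell at 3 h (all genes 23.2% and 23.3%). At 24 h, 9 of these 24 rose and 6 fell in knockout cells (all genes 26.0% and 31.5%). In wildtype cells 7 rose and 7 fell at 24 h (all genes 23.6% and 26.4%). Hmox1, the haem-degrading enzyme gene, rose by 1.69 ± 0.12 in wildtype cells at 24 h, when P4ha2 and Tfrc fell, with a log2 change of -1.58 and -1.53. Lox, which cross-links collagen, and Hilpda, of lipid droplets, rose by 1.85 and 1.65 in wildtype cells at 3 h. The medians of the further hypoxia targets were 0.12 in knockout and 0.03 in wildtype cells at 3 h, and 0.16 and -0.05 at 24 h.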

How the data were processed

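RNA of 12 samples was labelled with 1 dye and measured on 12 single-colour arrays. Per the file headers, the deposited processed intensity of each spot had background and a spatial trend removed within the array, without scaling between arrays, together with flags on background, saturation and uniformity. The program, per the submitters' processing notes, was Agilent Feature Extraction 10.7.3.1. The deposited table of values holds log2 numbers: at least 99.5% of detected probes on each array equal the log2 processed intensity minus a constant within 0.01. It is not centred per gene, and its column medians lie between -4.50 and -4.30.

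Outlier and control spots were left out, spots of a probe averaged and log2 processed intensities reduced by the array's 75th percentile. No spot was saturated. Replicates correlated with r of 0.994 to 0.997, and between 59.6% and 72.9% of spots per array were well above background. The number of arrays limits the precision. 39429 probes were named through the reference or the files, and the brightest probe was used for each gene that exceeded background clearly in both replicates of 1 group or more (22987 genes). limma 3.58.1 in R 4.3.3 was fitted to all 12 arrays with a mean per group (6 residual degrees of freedom, 2.23 prior), with Benjamini-Hochberg adjustment at 0.05; tables and figures were made in Python 3.11.15 with pandas 2.3.3, numpy 2.4.6 and matplotlib 3.10.9. The genotype difference over times used the means of 4 mice. Where a group was not well above background, the fold is a lower bound against the lowest detected signal of the array.

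Groups came from the labels, which also give the mouse of each sample, so samples with 1 number within a genotype form pairs. Deviations from group means correlated within a mouse, between pairs of times, with r of 0.353, 0.126 and 0.121 in knockout and 0.184, 0.120 and 0.148 in wildtype mice. Alternatives were normexp background correction (offset 50), quantile and other scalings, no or a stricter filter, the mean of a gene's probes, the deposited table, fits of the compared groups alone, fits without each array, and mouse as a block. The program was tested on simulated data. The members, lists and tests were chosen with earlier results of these data known. Members given with values of each sample were, per class and comparison, up to 3 called ones with the largest change in each direction, and every member called between genotypes; from each further list up to 3 called in wildtype cells at 3 h or 24 h were named, except for a few genes that are not reported here.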

Additional observations from a re-analysis of the deposited data

How the results depend on the processing

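Counts of members called with LPS stayed within 1.5 times under every alternative. In fits without 1 array they ran from 22 to 25 in knockout and 18 to 20 in wildtype cells at 3 h, from 21 to 26 and 17 to 21 at 24 h, and from 21 to 24 and 17 to 20 between 24 h and 3 h. Over these comparisons and untreated knockout against wildtype, 151 differences were called; 12 lost the call with the 75th percentile over detected probes, 18 after quantile normalization, 20 under the spike-in slope scaling, 4 with normexp, 13 without a filter, 7 with the mean of a gene's probes, 21 with only the groups compared, 2 with the deposited table and 1 with mouse as a replicate block. Of 149 that could be refitted on probes detected on all arrays, 0 did. Signs turned under quantile normalization for Ldha at 3 h in wildtype cells (-0.041), and for Aldoa (-0.012) and Gapdh (-0.074) in knockout cells at 24 h. Under the spike-in slope scaling they turned for Ldha in wildtype cells at 24 h (-0.28) and between 3 h and 24 h in knockout cells (-0.14), and for Aldoa (-0.13) and Gapdh (-0.19) in knockout cells at 24 h. The scaling also moved the median of all genes, to 0.22 with normexp and -0.20 with the percentile over detected probes in knockout cells at 24 h, against -0.07. The cause of these changes was not tested.

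Counts for untreated knockout against wildtype, 4 in the fit reported, were 2 with the percentile over detected probes, 18 under the spike-in slope scaling, 10 with normexp, 2 without a filter, 7 on probes detected on all arrays, 0 with only the groups compared, and 0 to 4 without 1 array. At 3 h, 0 became 9 under the spike-in slope scaling, 1 with normexp, 2 on probes detected on all arrays, and 0 to 5 without 1 array (5 without knockout replicate 2). At 24 h, 0 became 1 with the percentile over detected probes, 1 after quantile normalization, 2 with normexp, 1 with the deposited table, 1 on probes detected on all arrays, and 0 to 1 without 1 array. For the interactions at 3 h and 24 h, 0 became 2 with normexp and 1 on probes detected on all arrays at each time, and 0 to 1 without 1 array. With mouse as a replicate block, the pairing given by the labels, the 24 h interaction had 1 call and the difference over times 3; it ended 1 LPS call, that of Pfkl in knockout cells at 3 h. The slide was not run as a block, since each genotype comparison lies within 1 slide and the block gives no value of its own. With only the groups compared, 0% of all genes were called in untreated cells, so the count of 0 members there was fixed by the fit.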

Other observations

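Some hypoxia genes outside the 34 members differed between knockout and wildtype cells; they are named here after their values were seen. In untreated cells, 1 of 24 further hypoxia targets was higher and 3 were lower in knockout cells (all genes 3.72% and 3.01%), all 4 by at least 2-fold. At 3 h, 0 were higher and 2 lower (all genes 1.06% and 0.600%). At 24 h, 1 was higher and 0 were lower (all genes 0.722% and 1.67%). What was called higher is not reported here, so the genes below show 1 direction only. Tfrc, the transferrin receptor gene, was at -1.20 and -0.87 untreated, -1.10 and -0.55 after 3 h and -2.13 and -1.89 after 24 h in knockout cells, and at 0.10 and 0.42 untreated, 0.22 and 0.39 after 3 h and -1.35 and -1.19 after 24 h in wildtype cells. P4ha2, a collagen prolyl hydroxylase gene, was at -0.30 and -0.00049 untreated, -0.49 and -0.07 after 3 h and -1.55 and -1.45 after 24 h in knockout cells, and at 0.73 and 1.00 untreated, 0.59 and 0.76 after 3 h and -0.80 and -0.63 after 24 h in wildtype cells. For both, knockout samples lay below wildtype samples at each of the 3 times. The differences of Tfrc were -1.30 ± 0.21 untreated, -1.13 ± 0.21 at 3 h and -0.74 ± 0.21 at 24 h (limma, adjusted p = 0.0162, 0.0475 and 0.0985). Those of P4ha2 were -1.01 ± 0.17, -0.95 ± 0.17 and -0.78 ± 0.17 (adjusted p = 0.0192, 0.0475 and 0.0560). Bhlhe40, a transcriptional repressor gene, was lower in untreated knockout cells, at -2.52 and -2.34 against -1.36 and -0.98 in wildtype cells (-1.26 ± 0.15, adjusted p = 0.00583), and at 3 h it was -1.31 and -1.47 in knockout and -1.28 and -1.46 in wildtype cells, not called. With only the groups compared, none of these differences was called, and at 3 h those of Tfrc and P4ha2 were also lost without a filter on dim probes. Those fits called 0% of all genes in the same comparisons, so these losses do not bear on the named genes in particular. The untreated calls of both were lost without wildtype replicate 2 or knockout replicate 1 (Tfrc -1.46 to -1.13, P4ha2 -1.16 to -0.87). Their 3 h calls were lost without either wildtype replicate or knockout replicate 1 (Tfrc -1.40 to -0.85, P4ha2 -1.16 to -0.74). These values share the limit of the members: a genotype effect and one of array position cannot be told apart.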
